A study of Mus musculus with 9 samples.

Results

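The 54 genes described here encode the machinery with which a cell copies its DNA and divides. They were taken by symbol from a table of 21959 genes, and each of the 54 was found in 1 row. Of these, 24 act in the G1 to S transition and in DNA replication, 28 act in mitosis and 2 encode inhibitors of cyclin-dependent kinases (CDKs). RNA was sequenced from the colon of wild-type mice in 3 groups of 3 libraries. The group Model received dextran sulfate sodium (DSS), a polymer that injures the colon lining and induces colitis. The group CDs received DSS and carbon dots made from lotus node charcoal, nanometre-sized carbon particles. The group Blank received no treatment. The sources used here give no dose, schedule, day of collection, sex, age or strain, and the series description states that replicates were biological.

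A cell enters S phase when D-type and E-type cyclins with their kinases inactivate the retinoblastoma protein and release E2F transcription factors. Origins of replication are licensed by loading of the MCM helicase in G1 and are fired in S phase. Mitotic cyclins with Cdk1 then drive condensation of chromosomes and assembly of the spindle, and ubiquitination by the anaphase-promoting complex ends mitosis. E2F factors govern the transcription of replication genes, whereas mitotic genes are transcribed later, under the MuvB complex with B-Myb and FoxM1. In the colon most dividing cells lie in the lower crypt, and DSS damages the crypts. Immune cells that enter the inflamed wall can also divide.

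Libraries held 13868864 to 19940300 counted reads, and 3 reads correspond to 0.150 to 0.216 CPM (reads counted relative to the size of the library), a limit that covers counting error only. All 54 genes had reads in every library and passed the expression filter, as did 14921 genes in all, and the least abundant, E2f1, had 777 reads over the 9 libraries. All 10 epithelial markers were read in every library. Several libraries carried RNA of other organs. Summed levels of 11 pancreatic acinar genes were 7631 CPM in Model 1, 64512 CPM in Model 3 and 281 CPM in CDs 1, against 3.28 to 18.8 CPM in the other 6 libraries. Of these genes, 7 to 9 had no read in each of those 6. The prostate gene Pbsn reached 895 CPM in Blank 2 and 113 CPM in Blank 3, with no read in Blank 1. The CDs 1 library stood apart from CDs 2 and CDs 3 for most of the 54 genes. Results that rest on these libraries are given with and without them. Of the 54 genes, 15 overlap another gene by the deposited coordinates (Ccna2, Ccnd1, Ccne2, Cdk2, Cdk4, Cdc20, Cdc25b, Cdc25c, Cdc45, Foxm1, Kif20a, Mcm7, Nusap1, Prc1 and Ube2c), nearly always on the opposite strand, and their counts are uncertain because no strand-marking step is named in the library protocol.

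Mitotic genes were low in DSS-treated colon, and replication genes were closer to their level in untreated colon. In Model versus Blank, 26 of 28 mitosis members fell, each with a log2 fold change of -1 or less, and the median log2 fold change was -1.45 (range -2.08 for Cenpf to -0.28 for Mybl2). Of the 24 replication members 2 fell, Gmnn and Tyms, and the median was -0.31 (range -1.15 for Mcm10 to 0.70 for Ccne1). Both CDK inhibitors fell. No member rose. A gene is said to have fallen or risen where edgeR's quasi-likelihood test gave an adjusted p under 0.05 over all tested genes. By that rule 19.6% of all tested genes fell and 24.5% rose, 6.46% fell with a log2 fold change of -1 or less, and the median of all genes was -0.03. Every Model library lay below every Blank library for 27 mitosis members and 10 replication members, as for 31.0% of all genes. The difference between the replication and mitosis members was not itself tested. In whole tissue, fewer dividing cells and less RNA of these genes per cell cannot be told apart.

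**Figure D1:**
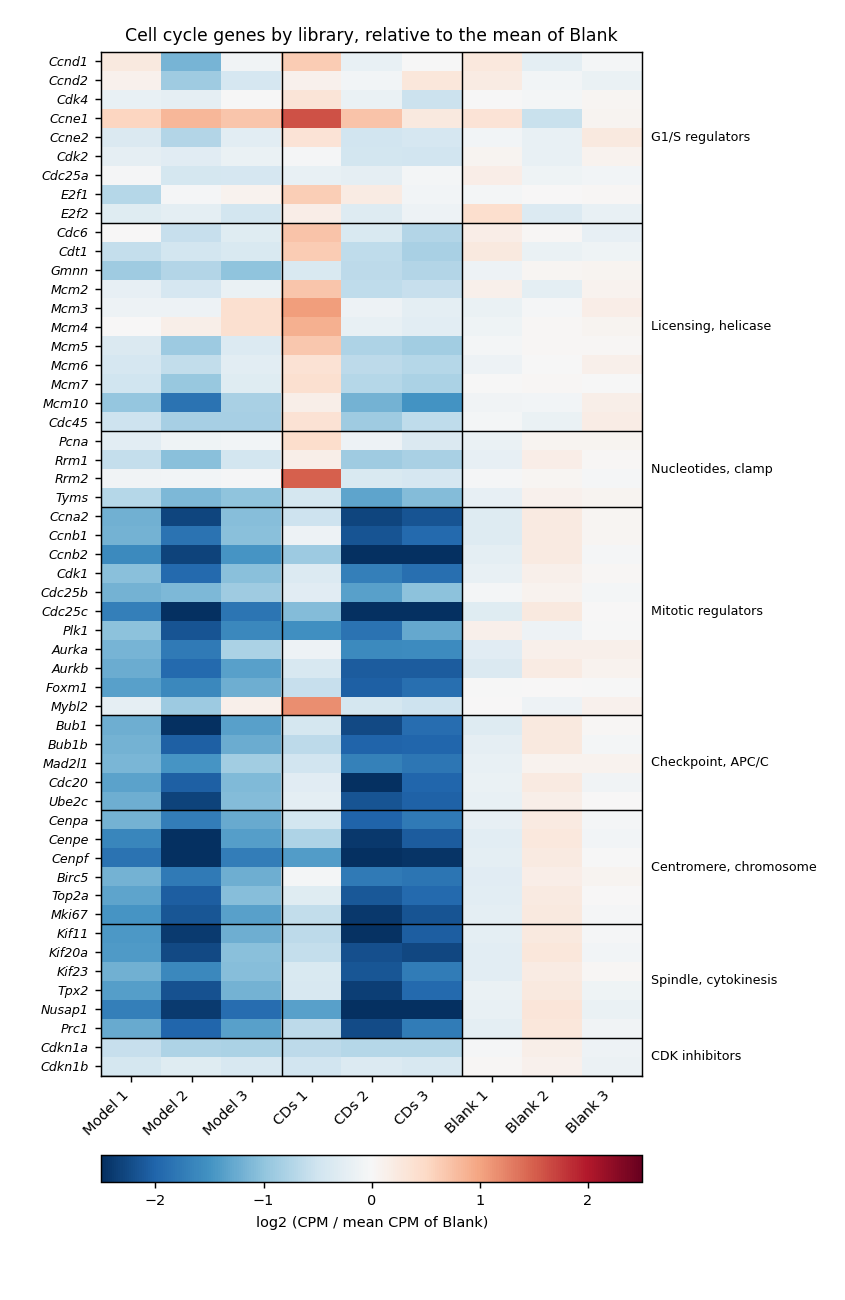
Level of each of the 54 genes in each library (columns, Model, CDs and Blank) as log2 of its CPM over the mean CPM of Blank, with genes ordered by role and blue for lower. The mitosis rows are blue in all Model libraries and in CDs 2 and CDs 3 and paler in CDs 1, and the replication rows are pale in most libraries and red in CDs 1 for many genes.

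The count of 26 fallen mitosis members depended on single libraries. It was 8 without Model 2, 15 without Model 3, 16 without Blank 1, 8 without Blank 2 and 12 without Blank 3. Calls over all genes shrank too, from 2920 fallen genes with all libraries to 1568, 1478, 1842, 1770 and 1885 in the same order. The median over all 28 mitosis members was between -1.22 (without Model 2) and -1.60 (without Model 3). All 28 fell in a fit without Model 1, Model 3 and CDs 1, which hold pancreatic RNA, but the only Model library left there is Model 2, the lowest Model library for 27 of the 28. Among mitosis members only Plk1 fell without Blank 2 and Blank 3 (median -1.24). Both fits take the lone library to vary as the rest do. The 10 epithelial markers summed to 6016 to 10550 CPM in Model, 6515 to 11656 CPM in CDs and 11412 to 13049.8 CPM in Blank. Of these markers 2 fell in Model (median log2 fold change -0.68), beside 19.6% of all tested genes. Scaling to these markers, an alternative added after the data were seen, moved the median of all genes from -0.03 to 0.73. It left 1 mitosis member (Plk1) called lower and 1 member (Ccne1) called higher, beside 318 genes lower and 5816 higher over all genes. The median of the mitosis members was then -0.72. Relative to all genes it was -1.45, against -1.42 before, but scaling shifts all genes nearly alike and could hardly change this value. Leukocyte markers rose in 8 of 8 and summed to 1573 to 3264 CPM in Model, 2077 to 3171 CPM in CDs and 437 to 610.5 CPM in Blank. Stem cell markers fell in 5 of 6 tested genes and fibroblast markers rose in 7 of 7. The part of these shifts in the levels of the 54 genes was not tested.

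The promoters of the members were searched for words already known from promoters of mitosis and replication genes. The words were picked for that reason, so their shares are a description and no independent support. RefSeq sequences of 250 bases before to 50 bases after the gene start were matched for 43 of the 54 genes (19 replication, 22 mitosis, 2 inhibitors) and for 27025 genes in all, with the first listed start of each gene. Words were searched on both strands. The CCAAT box is the binding element of NF-Y, and the cell cycle genes homology region (CHR), written TTTGAA or TTCGAA, is bound by MuvB complexes. A CHR word was in 72.7% of the 22 mitosis promoters, 15.8% of the 19 replication promoters and 19.4% of all promoters. CCAAT was in 81.8% of mitosis, 68.4% of replication and 37.9% of all promoters, and at least 2 CCAAT boxes with a CHR word were in 45.5% of mitosis, 10.5% of replication and 2.43% of all promoters. E2F words (TTTCGCGC, TTTGGCGC, TTTCCCGC, TTTGGCGG or TTTCCCGG, overlapping matches included) were in 9.09% of mitosis, 47.4% of replication and 3.66% of all promoters. The promoters of the mitosis members Mybl2, Mad2l1 and Nusap1 held none of these words. A match in these letters is a description and not a binding site.

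Promoters of 4 mitotic genes of different roles and of 3 helicase subunits are shown because they hold these elements, and they were chosen after the matches were seen. Windows are from RefSeq on GRCm38.p6 and are printed 5′ to 3′ on the strand of the gene. They are Cenpf at chr1:189688037-189688336 (minus strand), Plk1 at chr7:122159185-122159484 (plus strand), Cdc20 at chr4:118437294-118437593 (minus strand), Top2a at chr11:99024140-99024439 (minus strand), Mcm3 at chr1:20820263-20820562 (minus strand), Mcm5 at chr8:75109259-75109558 (plus strand) and Mcm6 at chr1:128359656-128359955 (minus strand). Capitals mark CCAAT (or ATTGG on the other strand), CHR words and E2F words, which in Mcm5 and Mcm6 overlap each other.
Cenpf: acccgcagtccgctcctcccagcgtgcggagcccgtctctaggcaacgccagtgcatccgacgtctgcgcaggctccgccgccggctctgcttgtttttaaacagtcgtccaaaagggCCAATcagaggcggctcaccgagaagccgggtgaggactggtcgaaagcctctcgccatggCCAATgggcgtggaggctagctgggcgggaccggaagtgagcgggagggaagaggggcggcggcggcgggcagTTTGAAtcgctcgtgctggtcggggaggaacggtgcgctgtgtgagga
Plk1: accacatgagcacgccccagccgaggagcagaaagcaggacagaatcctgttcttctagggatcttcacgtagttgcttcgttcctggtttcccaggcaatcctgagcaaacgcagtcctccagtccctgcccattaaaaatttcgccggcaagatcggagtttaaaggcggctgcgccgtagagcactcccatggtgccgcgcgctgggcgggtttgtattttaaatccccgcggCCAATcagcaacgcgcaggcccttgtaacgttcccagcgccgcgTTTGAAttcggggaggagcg
Cdc20: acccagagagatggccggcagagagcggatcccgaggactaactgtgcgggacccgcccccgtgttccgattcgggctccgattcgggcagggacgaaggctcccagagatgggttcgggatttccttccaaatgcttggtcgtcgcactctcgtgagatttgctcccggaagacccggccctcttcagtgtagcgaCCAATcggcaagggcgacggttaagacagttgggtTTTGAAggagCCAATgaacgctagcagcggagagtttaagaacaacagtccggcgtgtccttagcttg
Top2a: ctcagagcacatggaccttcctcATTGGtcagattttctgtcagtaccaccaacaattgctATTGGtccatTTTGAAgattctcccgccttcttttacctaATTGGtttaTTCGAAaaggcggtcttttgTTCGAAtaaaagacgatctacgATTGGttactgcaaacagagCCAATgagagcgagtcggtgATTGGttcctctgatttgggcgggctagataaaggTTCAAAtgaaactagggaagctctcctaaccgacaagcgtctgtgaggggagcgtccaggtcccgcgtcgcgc
Mcm3: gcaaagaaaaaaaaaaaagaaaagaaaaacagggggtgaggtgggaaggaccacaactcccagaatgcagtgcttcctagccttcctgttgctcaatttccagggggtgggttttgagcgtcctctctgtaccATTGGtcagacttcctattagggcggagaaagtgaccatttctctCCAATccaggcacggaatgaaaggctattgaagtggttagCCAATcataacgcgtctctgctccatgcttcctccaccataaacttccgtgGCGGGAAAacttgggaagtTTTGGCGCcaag
Mcm5: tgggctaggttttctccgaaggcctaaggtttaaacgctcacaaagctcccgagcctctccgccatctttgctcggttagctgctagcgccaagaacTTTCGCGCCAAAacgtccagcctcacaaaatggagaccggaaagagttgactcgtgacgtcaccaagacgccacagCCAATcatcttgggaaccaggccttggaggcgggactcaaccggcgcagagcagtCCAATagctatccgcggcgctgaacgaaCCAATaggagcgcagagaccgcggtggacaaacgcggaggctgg
Mcm6: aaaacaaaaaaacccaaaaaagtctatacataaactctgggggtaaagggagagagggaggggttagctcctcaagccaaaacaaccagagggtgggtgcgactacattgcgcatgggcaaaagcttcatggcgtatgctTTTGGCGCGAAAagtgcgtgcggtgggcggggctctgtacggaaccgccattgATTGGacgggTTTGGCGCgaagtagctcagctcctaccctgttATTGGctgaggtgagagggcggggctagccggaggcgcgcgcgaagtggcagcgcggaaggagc

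The mitotic regulators are kinases, cyclins and phosphatases that trigger mitosis and the factors that transcribe them. Of these, 9 of 11 fell (median log2 fold change -1.39), beside 19.6% of all tested genes. Values per library are TMM-scaled CPM in the order of replicates 1, 2 and 3, with log2 fold changes for Model versus Blank. Plk1, a kinase needed for entry into mitosis and for the spindle (ENSMUSG00000030867, chromosome 7, 121758662 to 121769096 by the deposited table), was at 47.7, 21.9 and 31.8 CPM in Model, 33.8, 27.3 and 39.99 CPM in CDs and 107, 88.7 and 96.7 CPM in Blank. All 6 DSS-treated libraries lay below the 3 Blank libraries, and the log2 fold change was -1.53 ± 0.26 (SE, adjusted p = 0.00218 by edgeR). The phosphatase Cdc25c, which activates Cdk1, was at 4.43, 2.56 and 4.09 CPM in Model, 6.91, 1.73 and 2.43 CPM in CDs and 11.9, 17.2 and 14.6 CPM in Blank, with a log2 fold change of -1.99 ± 0.46 (SE, adjusted p = 0.00912 by edgeR). Its relative Cdc25b was at 14.3, 15.05 and 17.7 CPM in Model, 26.7, 12.7 and 16.03 CPM in CDs and 31.5, 34.8 and 31.5 CPM in Blank, with a log2 fold change of -1.06 ± 0.24 (SE, adjusted p = 0.00891 by edgeR). For both phosphatases CDs 1 was the highest DSS-treated library and still below every Blank library.

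The mitotic cyclins and their kinase gave lower values in Model, with a wide spread between libraries. Ccnb2 was at 16.1, 9.78 and 17.6 CPM in Model, 25.97, 6.34 and 7.79 CPM in CDs and 41.3, 57.2 and 47.8 CPM in Blank. It fell with a log2 fold change of -1.76 ± 0.49 (SE, adjusted p = 0.0193 by edgeR). Ccna2, the cyclin of S and G2 phase, had a log2 fold change of -1.43 ± 0.49 (SE, adjusted p = 0.0408 by edgeR) and Cdk1, the mitotic kinase, of -1.29 ± 0.40 (SE, adjusted p = 0.0304 by edgeR). Ccnb1 was at 24.4, 15.4 and 26.9 CPM in Model, 50.7, 12.5 and 14.5 CPM in CDs and 44.6, 64.5 and 57.3 CPM in Blank. No Model library reached a Blank library for Ccnb1, yet its log2 fold change of -1.32 ± 0.49 (SE, adjusted p = 0.0555 by edgeR) missed the threshold. The Aurora kinases fell as well, with log2 fold changes of -1.19 ± 0.41 (SE, adjusted p = 0.0402 by edgeR) for Aurka and -1.49 ± 0.44 (SE, adjusted p = 0.0241 by edgeR) for Aurkb.

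The 2 transcription factors of this role differed in their values. Foxm1, which drives the transcription of G2 and M phase genes, was at 12.5, 10.4 and 13.7 CPM in Model, 21.4, 7.83 and 8.68 CPM in CDs and 31.96, 32.4 and 31.8 CPM in Blank, and its log2 fold change was -1.39 ± 0.34 (SE, adjusted p = 0.0113 by edgeR). All DSS-treated libraries of Foxm1 were below all Blank libraries. Mybl2, which encodes B-Myb and is itself an E2F target, was at 7.77, 4.80 and 9.92 CPM in Model, 20.1, 6.70 and 6.32 CPM in CDs and 9.07, 8.30 and 9.74 CPM in Blank. Its groups overlapped, and the log2 fold change was -0.28 ± 0.45 (SE, adjusted p = 0.639 by edgeR).

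All 5 genes of the spindle checkpoint and the anaphase-promoting complex fell (median -1.45), beside 19.6% of all tested genes. Bub1b, the checkpoint kinase BubR1 (ENSMUSG00000040084, chromosome 2, 118428692 to 118472072), was at 22.7, 12.6 and 21.8 CPM in Model, 33.01, 12.9 and 13.1 CPM in CDs and 43.9, 61.3 and 49.7 CPM in Blank, with a log2 fold change of -1.45 ± 0.38 (SE, adjusted p = 0.0155 by edgeR). Mad2l1, which restrains Cdc20 until chromosomes are attached, was at 22.1, 17.4 and 26.5 CPM in Model, 35.1, 15.1 and 13.9 CPM in CDs and 42.6, 51.9 and 51.5 CPM in Blank, with a log2 fold change of -1.15 ± 0.33 (SE, adjusted p = 0.0229 by edgeR). Bub1, a kinetochore kinase, was at 12.6, 4.89 and 11.5 CPM in Model, 21.6, 6.16 and 7.79 CPM in CDs and 23.4, 34.4 and 29.96 CPM in Blank, with a log2 fold change of -1.61 ± 0.50 (SE, adjusted p = 0.0279 by edgeR). In each of these 3 genes every DSS-treated library was below every Blank library. Cdc20, an activator of the anaphase-promoting complex, and Ube2c, its ubiquitin-conjugating enzyme, passed the threshold narrowly, with log2 fold changes of -1.45 ± 0.52 (SE, adjusted p = 0.0494 by edgeR) for Cdc20 and -1.45 ± 0.51 (SE, adjusted p = 0.0458 by edgeR) for Ube2c.

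The 6 genes of centromeres and chromosome structure all fell (median -1.52), beside 19.6% of all tested genes. Cenpf, a large kinetochore protein (ENSMUSG00000026605, chromosome 1, 189372803 to 189420283), had the lowest fold change of all members. It was at 25.3, 12.4 and 27.4 CPM in Model, 34.6, 11.4 and 16.7 CPM in CDs and 76.8, 107 and 90.2 CPM in Blank, with a log2 fold change of -2.08 ± 0.42 (SE, adjusted p = 0.00472 by edgeR), a level 4.22 times lower in Model. The motor protein Cenpe, which moves chromosomes to the spindle equator, was at 26.1, 13.5 and 31.04 CPM in Model, 47.1, 15.2 and 19.1 CPM in CDs and 67, 97.1 and 77.3 CPM in Blank, with a log2 fold change of -1.78 ± 0.44 (SE, adjusted p = 0.0121 by edgeR). Cenpa, the centromeric histone, was at 21.3, 14.6 and 20.2 CPM in Model, 35.2, 12.1 and 14.2 CPM in CDs and 42.1, 56.2 and 46.9 CPM in Blank, with a log2 fold change of -1.37 ± 0.37 (SE, adjusted p = 0.0171 by edgeR). For Cenpe and Cenpa, CDs 1 was the highest DSS-treated library, below all Blank libraries. Birc5, which encodes survivin of the chromosomal passenger complex, was at 16.6, 11.1 and 16.1 CPM in Model, 36.5, 11 and 10.6 CPM in CDs and 30.99, 42.4 and 39.6 CPM in Blank, and its log2 fold change was -1.37 ± 0.45 (SE, adjusted p = 0.0351 by edgeR). CDs 1 lay inside the Blank range for Birc5.

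Mki67, the gene of the proliferation marker Ki-67, had the highest length-corrected level of the mitosis members. It was at 16.02 ± 3.72 FPKM in Model, 18.4 ± 14.5 FPKM in CDs and 47.8 ± 8.07 FPKM in Blank (SD, n = 3 each). In CPM it was at 179, 112 and 193 CPM in Model, 326, 92.7 and 111 CPM in CDs and 417, 587 and 485 CPM in Blank. Its log2 fold change was -1.62 ± 0.45 (SE, adjusted p = 0.0194 by edgeR). The topoisomerase Top2a was at 105, 62.7 and 125 CPM in Model, 211, 60.1 and 67.6 CPM in CDs and 217, 305 and 263 CPM in Blank, and its log2 fold change was -1.43 ± 0.47 (SE, adjusted p = 0.036 by edgeR). In both, Model 2, CDs 2 and CDs 3 were the lowest libraries and CDs 1 was the highest of the DSS-treated ones.

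Of the 6 genes of the spindle and of cytokinesis, all 6 fell (median -1.51), beside 19.6% of all tested genes. Nusap1, a microtubule-binding protein of the spindle (ENSMUSG00000027306, chromosome 2, 119448779 to 119481725), was at 21.7, 13.5 and 18.97 CPM in Model, 27.5, 9.27 and 12.6 CPM in CDs and 61.9, 87.2 and 63.2 CPM in Blank, with a log2 fold change of -1.97 ± 0.38 (SE, adjusted p = 0.00371 by edgeR). Prc1, which bundles microtubules of the central spindle, was at 19.5, 11.9 and 18.2 CPM in Model, 29.8, 9.87 and 13.9 CPM in CDs and 39.4, 56.5 and 44.2 CPM in Blank, with a log2 fold change of -1.50 ± 0.38 (SE, adjusted p = 0.013 by edgeR). Kif11, the motor that separates the spindle poles, was at 36.7, 18.8 and 42.6 CPM in Model, 62.9, 17.7 and 23.7 CPM in CDs and 83.01, 116 and 96.7 CPM in Blank, with a log2 fold change of -1.60 ± 0.47 (SE, adjusted p = 0.0231 by edgeR). No DSS-treated library reached a Blank library in these 3 genes. Tpx2, an activator of Aurora A, was at 25.9, 14.95 and 29.8 CPM in Model, 50.9, 13.3 and 17.6 CPM in CDs and 60.3, 79.8 and 62.9 CPM in Blank, and its log2 fold change was -1.53 ± 0.47 (SE, adjusted p = 0.0281 by edgeR). The cytokinesis motors Kif20a and Kif23 had log2 fold changes of -1.49 ± 0.47 (SE, adjusted p = 0.0298 by edgeR) and -1.28 ± 0.40 (SE, adjusted p = 0.0304 by edgeR).

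**Figure D2:**
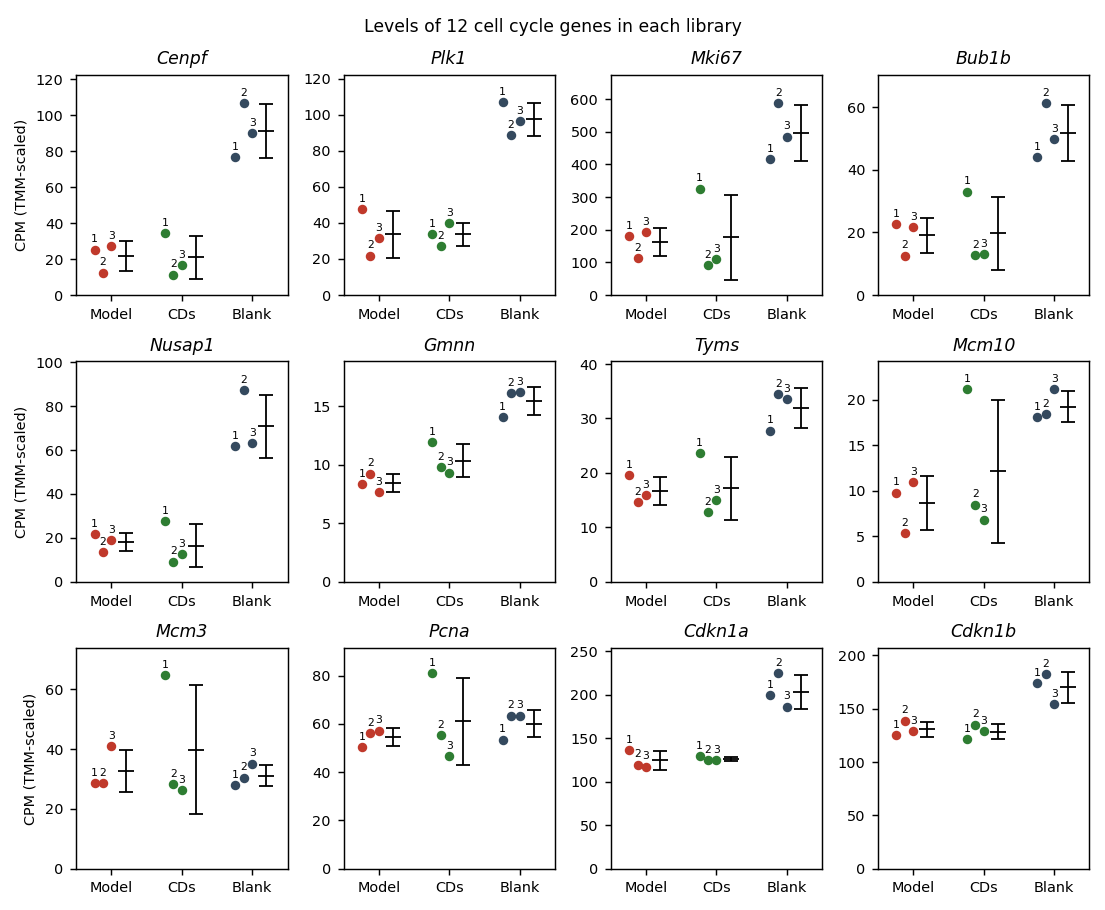
Levels of 12 genes in each library (points, numbered by replicate, TMM-scaled CPM on a linear axis from 0) with the mean and SD of each group of 3. The 5 mitosis genes (Cenpf, Plk1, Mki67, Bub1b, Nusap1) are lower in every Model and CDs library than in every Blank library, as are Gmnn, Tyms, Cdkn1a and Cdkn1b, whereas Mcm3 and Pcna overlap and Mcm10 in CDs 1 is level with the highest Blank library.

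In the replication list, licensing and helicase genes had a median log2 fold change of -0.48, and 1 of 11 fell, beside 19.6% of all tested genes. Gmnn encodes geminin, which binds Cdt1 and blocks a further round of licensing (ENSMUSG00000006715, chromosome 13, 24935828 to 24945906). It was at 8.35, 9.26 and 7.71 CPM in Model, 11.96, 9.81 and 9.34 CPM in CDs and 14.1, 16.1 and 16.2 CPM in Blank. All Model and CDs libraries were below all Blank libraries, and the log2 fold change was -0.87 ± 0.15 (SE, adjusted p = 0.00213 by edgeR). Mcm10, a factor that activates the loaded helicase, was at 9.80, 5.36 and 10.99 CPM in Model, 21.2, 8.49 and 6.84 CPM in CDs and 18.1, 18.5 and 21.2 CPM in Blank, and Model lay wholly below Blank with a log2 fold change of -1.15 ± 0.42 (SE, adjusted p = 0.0515 by edgeR), which missed the threshold. Cdc45, a subunit of the active helicase, was at 7.04, 5.60 and 5.63 CPM in Model, 12.9, 5.44 and 6.47 CPM in CDs and 9.71, 8.99 and 11.4 CPM in Blank, with a log2 fold change of -0.72 ± 0.31 (SE, adjusted p = 0.0839 by edgeR). The CDs 1 values of Mcm10 and Cdc45 were at or above the highest Blank value.

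The 6 subunits of the MCM ring were not alike in their fold changes, and none passed the threshold. Mcm7 was at 35.2, 25.8 and 40.2 CPM in Model, 65.6, 30.1 and 28.6 CPM in CDs and 49.1, 50.5 and 49.4 CPM in Blank, with a log2 fold change of -0.56 ± 0.31 (SE, adjusted p = 0.162 by edgeR). Mcm5 was at 29.05, 19.9 and 29.4 CPM in Model, 59.9, 21.9 and 20.7 CPM in CDs and 36.2, 38.1 and 38.3 CPM in Blank, and its log2 fold change was -0.53 ± 0.38 (SE, adjusted p = 0.28 by edgeR). Mcm6 was at 52.5, 45.6 and 58.1 CPM in Model, 90.3, 44.5 and 42.5 CPM in CDs and 63.8, 69.96 and 76.1 CPM in Blank, with a log2 fold change of -0.43 ± 0.27 (SE, adjusted p = 0.216 by edgeR). For these 3 subunits every Model library was below every Blank library, CDs 2 and CDs 3 likewise, and CDs 1 was above every Blank library. Mcm2 had a log2 fold change of -0.26 ± 0.32 (SE), Mcm3 of 0.07 ± 0.33 and Mcm4 of 0.20 ± 0.28, with groups that overlapped. Mcm3 was at 28.6, 28.5 and 40.96 CPM in Model, 64.7, 28.4 and 26.2 CPM in CDs and 27.9, 30.5 and 35.1 CPM in Blank. The loading factors Cdc6 and Cdt1 had log2 fold changes of -0.27 ± 0.35 and -0.48 ± 0.35 (SE), also short of the threshold.

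Among the genes of nucleotide supply and the sliding clamp, 1 of 4 fell, beside 19.6% of all tested genes. Tyms, thymidylate synthase (ENSMUSG00000025747, chromosome 5, 30263200 to 30278615), was at 19.6, 14.7 and 15.9 CPM in Model, 23.7, 12.9 and 15 CPM in CDs and 27.8, 34.5 and 33.6 CPM in Blank, with a log2 fold change of -0.94 ± 0.23 (SE, adjusted p = 0.0111 by edgeR) and no overlap with Blank in either DSS-treated group. Rrm1, the large subunit of ribonucleotide reductase, was at 61.4, 44.9 and 67.6 CPM in Model, 104, 49.9 and 53.01 CPM in CDs and 80.4, 104 and 94.96 CPM in Blank, with a log2 fold change of -0.68 ± 0.28 (SE, adjusted p = 0.0739 by edgeR). Its partner Rrm2 was at 26.1, 26.7 and 27.4 CPM in Model, 77.98, 21.5 and 20.9 CPM in CDs and 27.3, 28.7 and 27.4 CPM in Blank, with a log2 fold change of -0.06 ± 0.45 (SE, adjusted p = 0.925 by edgeR). The Model and Blank libraries of Rrm2 lay between 26.1 and 28.7 CPM, and CDs 1 exceeded every other library. Pcna, the clamp that holds DNA polymerase on its template, was at 50.3, 56.02 and 57.3 CPM in Model, 81.1, 55.2 and 46.7 CPM in CDs and 53.5, 63.4 and 63.5 CPM in Blank, with a log2 fold change of -0.14 ± 0.19 (SE, adjusted p = 0.56 by edgeR) and groups that overlapped.

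No G1/S regulator passed the threshold in either direction, and their median log2 fold change was -0.22. Ccne1, a cyclin E, was the only member whose Model libraries all lay above its Blank libraries. It was at 6.90, 8.40 and 7.71 CPM in Model, 14.3, 7.71 and 5.59 CPM in CDs and 6.04, 3.22 and 4.94 CPM in Blank, with a log2 fold change of 0.70 ± 0.35 (SE, adjusted p = 0.137 by edgeR). Ccne2, the other cyclin E, was at 8.93, 6.93 and 9.59 CPM in Model, 14.5, 8.25 and 8.53 CPM in CDs and 10.9, 10.01 and 13.5 CPM in Blank, lower in Model without overlap, and its log2 fold change was -0.44 ± 0.25 (SE, adjusted p = 0.178 by edgeR). Cdc25a, a phosphatase that activates Cdk2, was at 51.4, 38.6 and 39.02 CPM in Model, 45.5, 44.4 and 50.2 CPM in CDs and 58.3, 48.6 and 49.6 CPM in Blank, with a log2 fold change of -0.28 ± 0.13 (SE, adjusted p = 0.119 by edgeR). The D cyclin Ccnd2 had the highest length-corrected level of the replication members, at 27.4 ± 8.74 FPKM in Model, 38.4 ± 4.38 FPKM in CDs and 33.6 ± 4.55 FPKM in Blank (SD, n = 3 each). In CPM it was at 352, 177 and 245 CPM in Model, 353, 312 and 396 CPM in CDs and 378, 312 and 290.4 CPM in Blank, with a log2 fold change of -0.34 ± 0.23 (SE, adjusted p = 0.26 by edgeR). Ccnd1, Cdk4, Cdk2, E2f1 and E2f2 had log2 fold changes between -0.34 (E2f2) and -0.14 (Cdk4), and their groups overlapped.

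The number of fallen replication genes also turned on the fit. In Model versus Blank it was 2 in all 9 libraries, 9 without CDs 1 and 9 in a fit of the 6 Model and Blank libraries alone (Cdt1, Gmnn, Mcm5, Mcm6, Mcm7, Mcm10, Cdc45, Rrm1 and Tyms in the 6-library fit). It was 4 without Model 1, 12 without Model 1, Model 3 and CDs 1, and 0 without Blank 2 and Blank 3. Scaled to the epithelial markers the median of the replication members was 0.44, and none fell. Relative to all genes this median was -0.29, against -0.28 before, a value that such scaling could hardly change. Over all genes 2920 fell in all 9 libraries, 3561 without CDs 1, 3190 in the 6-library fit and 3316 without Model 1. Under epithelial scaling 318 of all genes fell.

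Both CDK inhibitors had lower levels in DSS-treated colon. Cdkn1a encodes p21, a p53 target that holds CDKs inactive (ENSMUSG00000023067, chromosome 17, 29309950 to 29319701). It was at 137, 119.6 and 117 CPM in Model, 129, 125 and 125 CPM in CDs and 199, 225 and 186 CPM in Blank, and the log2 fold change was -0.71 ± 0.10 (SE, adjusted p = 0.00112 by edgeR). Cdkn1b encodes p27, which binds cyclin E and A kinases. It was at 125, 139 and 129 CPM in Model, 121, 135 and 129 CPM in CDs and 174, 183 and 154 CPM in Blank, with a log2 fold change of -0.38 ± 0.10 (SE, adjusted p = 0.0141 by edgeR), and it missed the threshold without Model 3 (adjusted p = 0.0583) and without Blank 2 (adjusted p = 0.0576). Every Model and CDs library was below every Blank library for both genes, and CDs 1 did not stand apart. Under scaling to the epithelial markers their log2 fold changes turned to 0.03 for Cdkn1a and 0.39 for Cdkn1b, against a median of 0.73 over all genes.

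**Figure D3:**
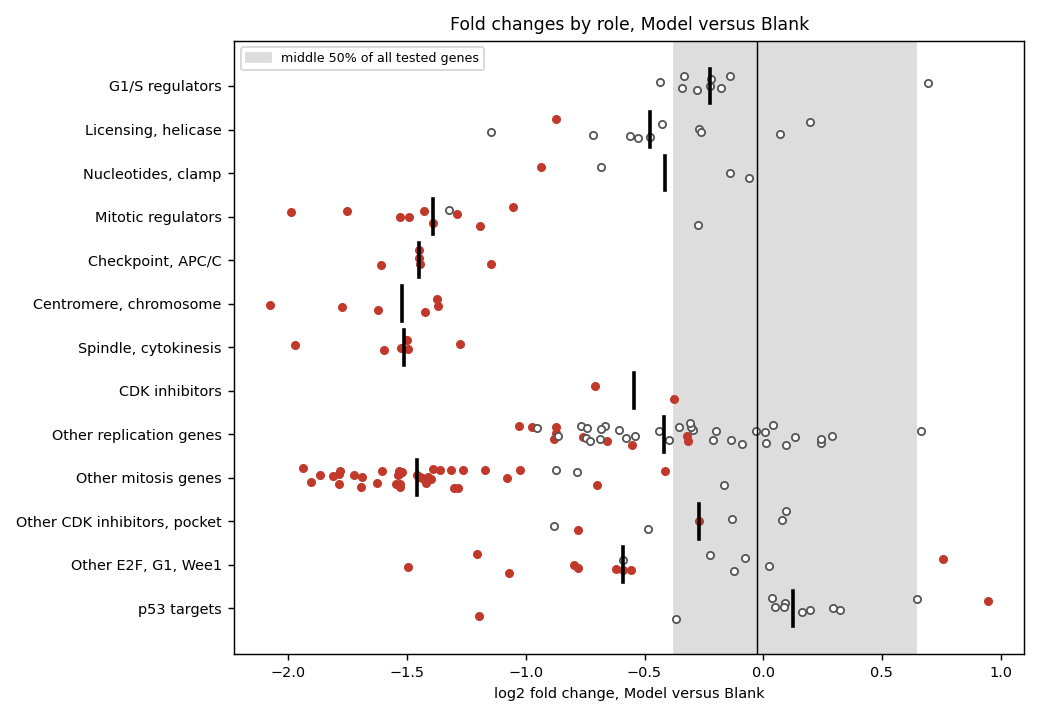
Log2 fold change in Model versus Blank of each member and of each gene in 5 further lists, in rows by role (filled red for adjusted p under 0.05, open otherwise, vertical bars for medians, grey for the middle 50% of all tested genes). The mitosis members sit to the left of the grey band apart from Mybl2, and the replication rows reach into it.

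Further genes of the same pathways were taken from lists made by role. Of 39 other mitosis genes 36 fell (34 with a log2 fold change of -1 or less) and none rose, with a median of -1.46. Over all tested genes 19.6% fell, 6.46% with a log2 fold change of -1 or less, and 24.5% rose. Ckap2, a microtubule-associated protein, was at 11.1, 6.74 and 9.12 CPM in Model, 14.5, 6.70 and 4.41 CPM in CDs and 25.3, 40.3 and 35.1 CPM in Blank, with a log2 fold change of -1.91 ± 0.40 (SE, adjusted p = 0.00582 by edgeR). Sgo2a, a shugoshin that protects cohesin, was at 2.69, 1.90 and 2.82 CPM in Model, 4.16, 2.21 and 2.21 CPM in CDs and 7.97, 9.40 and 5.39 CPM in Blank, with a log2 fold change of -1.63 ± 0.33 (SE, adjusted p = 0.00472 by edgeR). Spc25 of the Ndc80 complex had a log2 fold change of -1.30 ± 0.27 (SE, adjusted p = 0.00582 by edgeR), the cytokinesis regulator Ect2 of -1.54 ± 0.46 (SE, adjusted p = 0.026 by edgeR) and the cohesin regulator Cdca5 (sororin) of -1.17 ± 0.40 (SE, adjusted p = 0.0392 by edgeR). In all 5 genes every Model library was below every Blank library.

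Of 42 tested genes among 43 other replication genes, 10 fell and none rose, with a median of -0.42. The share of fallen genes is near the 19.6% of all tested genes. Every Model library was below every Blank library for 28 of the 42, beside 31.0% of all tested genes. Rpa3, a subunit of the single-strand binding protein, was at 12.9, 10.97 and 12.1 CPM in Model, 13.8, 12.1 and 11.9 CPM in CDs and 18.8, 22.8 and 19.3 CPM in Blank, with a log2 fold change of -0.76 ± 0.13 (SE, adjusted p = 0.00244 by edgeR). Prim1, the primase subunit, was at 11.04, 9.21 and 10.99 CPM in Model, 20.1, 10.1 and 10.5 CPM in CDs and 19.1, 21.7 and 20.5 CPM in Blank, with a log2 fold change of -0.98 ± 0.25 (SE, adjusted p = 0.0144 by edgeR). Both genes show no overlap between Model and Blank. Rfc2 of the clamp loader and Chaf1b of chromatin assembly had log2 fold changes of -0.32 ± 0.11 (SE, adjusted p = 0.0429 by edgeR) and -0.87 ± 0.31 (SE, adjusted p = 0.0477 by edgeR).

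Among other E2F, cyclin and Wee1-type genes 8 of 14 fell and 1 rose, beside 19.6% and 24.5% of all tested genes. E2f3, an activating E2F factor, was at 22.7, 22.8 and 21.9 CPM in Model, 28.2, 22.5 and 24.1 CPM in CDs and 41.2, 35.9 and 38.5 CPM in Blank, with a log2 fold change of -0.78 ± 0.11 (SE, adjusted p = 0.00111 by edgeR). E2f5, a repressive E2F factor, had a log2 fold change of -0.62 ± 0.14 (SE, adjusted p = 0.00848 by edgeR) and the Cdk1-inhibiting kinase Wee1 of -0.80 ± 0.19 (SE, adjusted p = 0.00937 by edgeR). Ccnd3, the D cyclin prominent in lymphocytes, was the gene that rose, at 47.6, 49.8 and 45.5 CPM in Model, 53.5, 53.9 and 41.4 CPM in CDs and 31.7, 25.2 and 27.7 CPM in Blank, with a log2 fold change of 0.76 ± 0.13 (SE, adjusted p = 0.00241 by edgeR). Mycn had a log2 fold change of -0.59 ± 0.37 (SE, adjusted p = 0.225 by edgeR). In CDs versus Model Mycn had the smallest p of these 14 genes (unadjusted p = 0.031, adjusted p = 0.936 by edgeR). It was the 1 gene of the list with an unadjusted p under 0.05, beside 788 of 14921 genes.

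Of 7 tested genes among 8 other CDK inhibitors and pocket proteins 2 fell, beside 19.6% of all tested genes. Rbl1 (p107) was at 54.4, 30.95 and 43.6 CPM in Model, 51.6, 41.2 and 45.6 CPM in CDs and 73.3, 76.5 and 71.6 CPM in Blank, with a log2 fold change of -0.78 ± 0.18 (SE, adjusted p = 0.00937 by edgeR), and Rb1, the retinoblastoma gene, had one of -0.27 ± 0.09 (SE, adjusted p = 0.0334 by edgeR). Cdkn2c, Rbl2 and Cdkn1c had log2 fold changes of -0.48 ± 0.18 (SE, adjusted p = 0.0531 by edgeR), -0.13 ± 0.09 (SE, adjusted p = 0.269 by edgeR) and 0.08 ± 0.25 (SE, adjusted p = 0.811 by edgeR). Of 12 other p53 targets 1 fell and 1 rose, both below the shares of 19.6% and 24.5% over all tested genes. Phlda3, an inhibitor of Akt, was at 9.15, 17.6 and 12.2 CPM in Model, 12.3, 12.7 and 11.2 CPM in CDs and 6.43, 6.31 and 7.53 CPM in Blank, with a log2 fold change of 0.95 ± 0.23 (SE, adjusted p = 0.0103 by edgeR), and the pro-apoptotic Bbc3 (Puma) was at 2.18, 2.66 and 2.82 CPM in Model, 1.98, 3.17 and 4.34 CPM in CDs and 6.24, 6.65 and 4.72 CPM in Blank, with a log2 fold change of -1.20 ± 0.29 (SE, adjusted p = 0.0114 by edgeR). Bax, Sesn2 and Ccng1 had log2 fold changes of 0.65 ± 0.24, 0.20 ± 0.13 and 0.04 ± 0.11 (SE), none past the threshold.

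The next comparison, CDs versus Model, asks what the carbon dots added to DSS. None of the 54 genes passed the threshold, and none had an unadjusted p under 0.05. The share of all genes called by edgeR was 0%, with 788 of 14921 genes at an unadjusted p under 0.05, 50 called by DESeq2 and 0 by limma. Medians were 0.13 for mitosis and 0.28 for replication members, beside 0.02 for all genes. Cenpf had a log2 fold change of -0.05 ± 0.41 (SE, adjusted p = 0.993 by edgeR) and Plk1 of 0.00 ± 0.26 (SE, adjusted p = 1 by edgeR). Highest were Rrm2 with 0.59 ± 0.45 (SE, adjusted p = 0.936 by edgeR) and Mybl2 with 0.57 ± 0.45 (SE, adjusted p = 0.936 by edgeR), and CDs 1 lay apart from the other CDs libraries in both. Gmnn, at 11.96, 9.81 and 9.34 CPM in CDs, against 8.35, 9.26 and 7.71 CPM in Model, was the only member with every CDs library above every Model library, as for 3.22% of all genes, and its log2 fold change was 0.30 ± 0.15 (SE, adjusted p = 0.936 by edgeR). In data simulated with the depth and spread of all tested genes, the test recovered 46% of 2-fold and 78% of 3-fold changes between these groups. It recovered 4% of 1.5-fold changes, so smaller differences were mostly not detectable. The changed genes were drawn at random from all tested genes, so recovery for the 54 genes was not measured. In the real comparison the lowest adjusted p of any gene was 0.891 by edgeR, so the simulation can overstate what was detectable.

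The CDs group was not uniform for these genes. CDs 1 was the highest of the 6 DSS-treated libraries for 27 of 28 mitosis and 22 of 24 replication members, as for 24.9% of all tested genes. It was at least 2-fold above both other CDs libraries for 26 mitosis and 10 replication members, against 3.95% of all genes. The median ratio of CDs 1 to the mean of CDs 2 and CDs 3 was 3.06 for mitosis (from 1.01 for Plk1 to 3.92), 2.04 for replication and 0.991 for all genes. CDs 2 and CDs 3 both lay below every Blank library for 28 of 28 mitosis and 16 of 24 replication members, as for 32.3% of all genes. CDs 1 lay below every Blank library for 24 mitosis members, as for 39.9% of all genes, and above every Blank library for 16 replication members, as for 42.9% of all genes. In Model, Model 2 was the lowest library for 27 mitosis and 16 replication members, as for 35.0% of all genes.

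**Figure D4:**
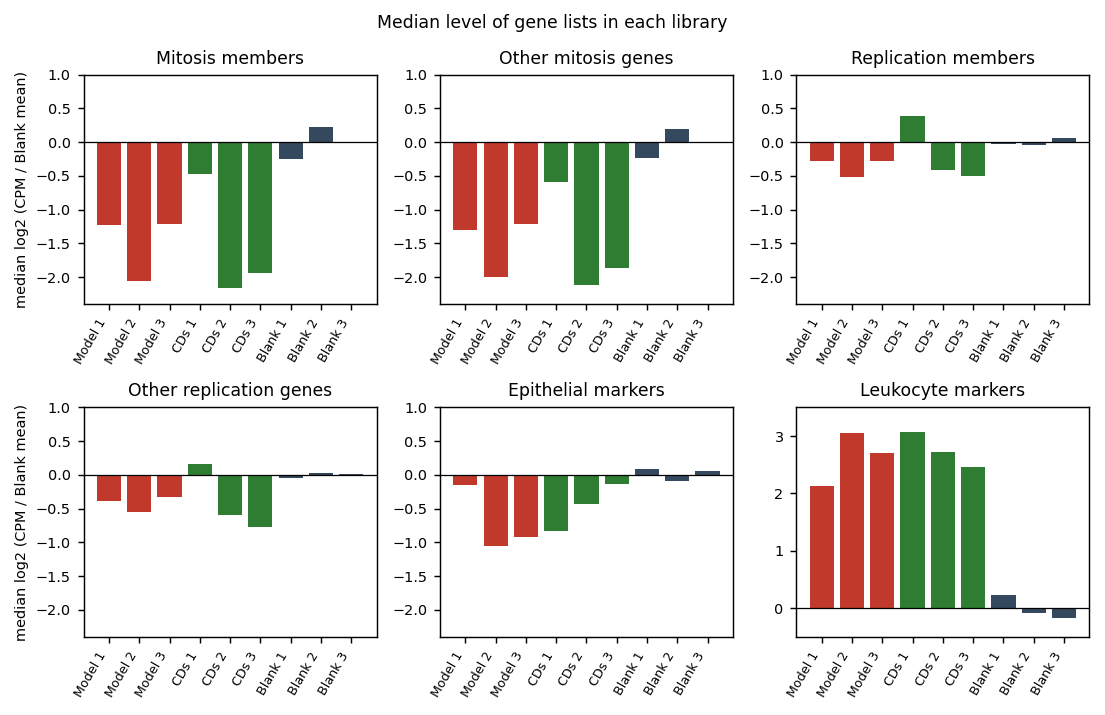
Median over each gene list of log2 CPM relative to the Blank mean (bars, 1 per library, red for Model, green for CDs, blue for Blank, with a separate axis range for leukocyte markers). CDs 1 is the highest DSS-treated library in the 4 cell cycle panels, at -0.47 for mitosis and 0.38 for replication members, and Model 2, CDs 2 and CDs 3 are lowest for mitosis members, at -2.05, -2.15 and -1.95.

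Markers of other cells also differed between these libraries. The 8 leukocyte markers summed to 3171 CPM in CDs 1, against 2600.2 CPM in CDs 2 and 2077 CPM in CDs 3, and CDs 1 was the highest of these libraries for 6 of the 8. The 8 germinal centre B cell genes summed to 188 CPM in CDs 1, against 72.1 CPM in CDs 2 and 94.3 CPM in CDs 3. Smooth muscle markers summed to 2457 CPM in CDs 1, against 6086 CPM in CDs 2 and 5985 CPM in CDs 3, and CDs 1 was the lowest for 7 of 7. The epithelial markers summed to 6515 CPM in CDs 1, against 9756 CPM in CDs 2 and 11656 CPM in CDs 3. Relative to that epithelial sum, the mitosis members came to 7.83, 7.49 and 14.7% in Model, 22.0, 4.61 and 4.59% in CDs and 13.8, 21.2 and 16.4% in Blank. The replication members came to 9.70, 11.2 and 15.7% in Model, 22.3, 9.25 and 8.35% in CDs and 9.10, 9.67 and 8.85% in Blank. Model 2 had the highest erythroid marker sum (409.5 CPM, against 82.1 CPM in Model 1 and 124 CPM in Model 3). The part of these cell types in the levels of the 54 genes was not tested.

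Without CDs 1 the medians of CDs versus Model turned to -0.60 for mitosis and -0.20 for replication members. Then 14 of the 54 members had an unadjusted p under 0.05 by edgeR, beside 1549 of 15109 genes, and none was called. Without Model 2 and CDs 1, an alternative added after the data were seen, the medians were -0.82 and -0.28. There 33 of the 54 members had an unadjusted p under 0.05 by edgeR, beside 1180 of 15028 genes, and no member was called. Without Model 1, Model 3 and CDs 1, a fit with 1 Model library, 1241 genes were called and among the members Ccnd1 (log2 fold change 1.06) and Ccnd2 were higher in CDs.

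**Figure D5:**
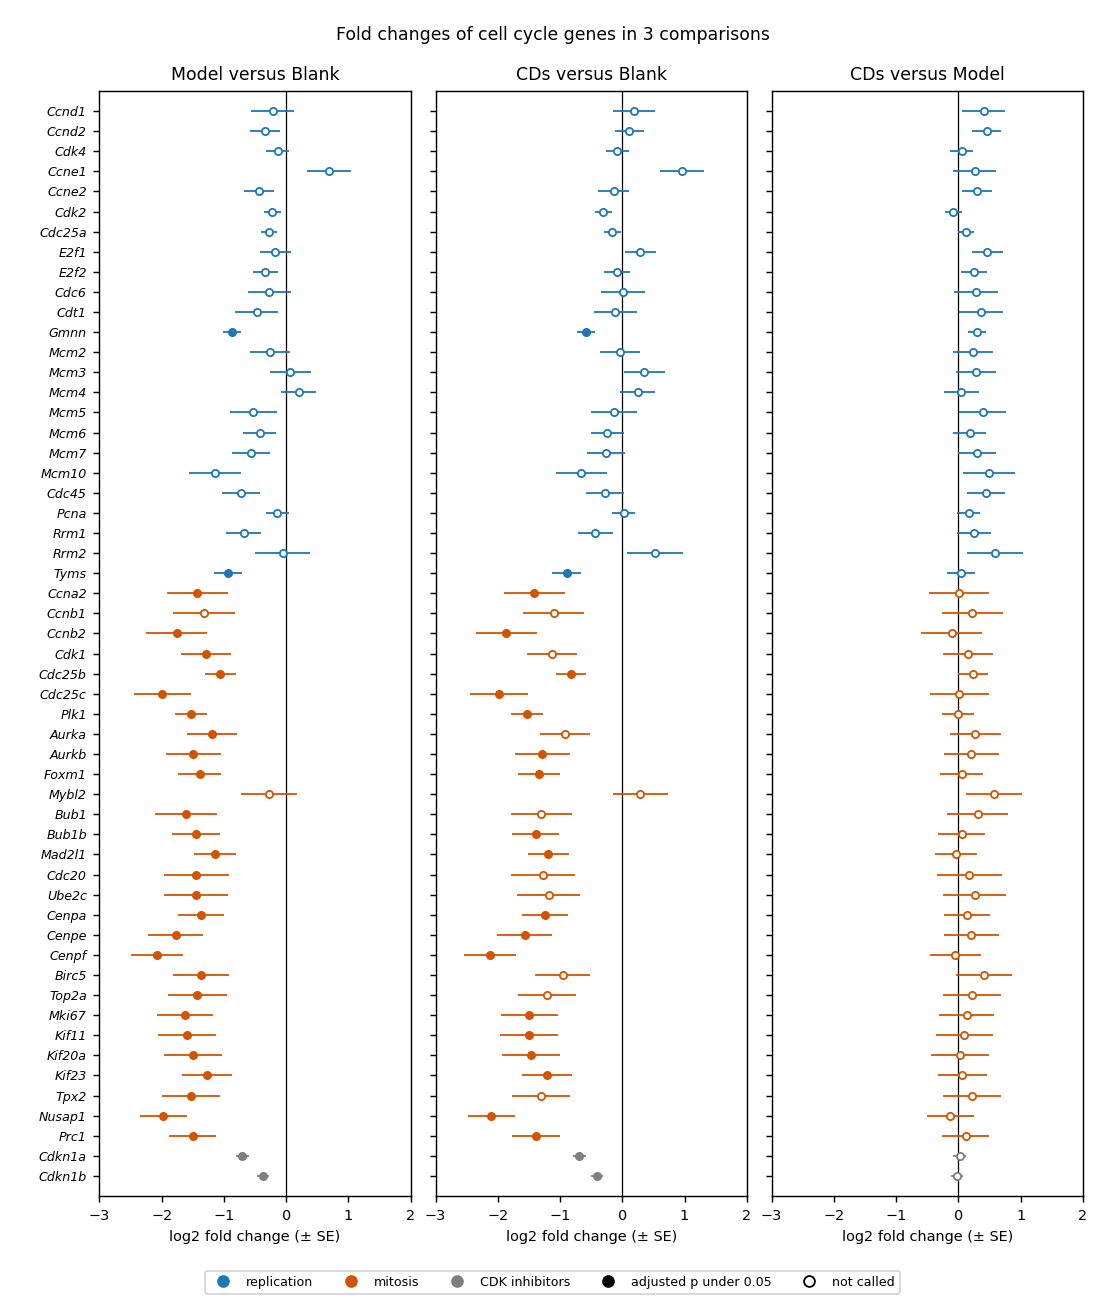
Log2 fold changes (points) with SE (bars) of the 54 genes in Model versus Blank, CDs versus Blank and CDs versus Model (blue for replication, orange for mitosis, grey for CDK inhibitors, filled for adjusted p under 0.05). Mitosis genes lie left of 0 in both comparisons with Blank apart from Mybl2 in CDs versus Blank, and no point is filled in CDs versus Model.

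In CDs versus Blank, 18 of 28 mitosis members fell (median -1.31) and 2 of 24 replication members (median -0.10), with both CDK inhibitors, beside 13.8% of all genes that fell and 21.8% that rose. No member rose. Every CDs library was below every Blank library for 24 mitosis members, as for 25.9% of all genes. This comparison shares the Blank libraries with Model versus Blank. Cenpf had a log2 fold change of -2.12 ± 0.42 (SE, adjusted p = 0.00548 by edgeR), Nusap1 of -2.10 ± 0.38 (SE, adjusted p = 0.00369 by edgeR), Cdc25c of -1.98 ± 0.46 (SE, adjusted p = 0.0115 by edgeR) and Plk1 of -1.53 ± 0.26 (SE, adjusted p = 0.00282 by edgeR). The mitosis members that did not pass were Ccnb1, Cdk1, Aurka, Mybl2, Bub1, Cdc20, Ube2c, Birc5, Top2a and Tpx2, and Mybl2 had a log2 fold change of 0.29 ± 0.44 (SE, adjusted p = 0.632 by edgeR). The replication genes that fell were Gmnn, with -0.58 ± 0.15 (SE, adjusted p = 0.0159 by edgeR), and Tyms, with -0.89 ± 0.23 (SE, adjusted p = 0.0164 by edgeR) on the log2 scale. Ccne1 had a log2 fold change of 0.96 ± 0.35 (SE, adjusted p = 0.0624 by edgeR). The inhibitors had log2 fold changes of -0.69 ± 0.10 (SE, adjusted p = 0.00172 by edgeR) for Cdkn1a and -0.41 ± 0.10 (SE, adjusted p = 0.0128 by edgeR) for Cdkn1b. Of the further lists, 30 of 39 other mitosis and 2 of 42 other replication genes fell.

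These counts depended on single libraries. Without CDs 1, 27 of 28 mitosis members and 12 of 24 replication members fell, with medians of -2.06 and -0.46, and Ccnb2 had a log2 fold change of -2.79 and Mcm10 of -1.32. Rrm2 had a log2 fold change of 0.53 ± 0.45 (SE) with all libraries and fell with a log2 fold change of -0.39 without CDs 1 (edgeR adjusted p = 0.0185). The count of fallen mitosis members was 5 without CDs 2, 5 without CDs 3, 10 without Blank 1, 5 without Blank 2 and 6 without Blank 3. In the same order 1222, 1883, 1299, 1074 and 1240 of all genes fell. With all libraries 2053 of all genes fell, and 1930 without CDs 1. The count of fallen replication members was 0 without CDs 2, without CDs 3, without Blank 2 and without Blank 3, each left out alone. Scaled to the epithelial markers 3 mitosis members fell (Plk1, Cenpf and Nusap1) and Ccne1 rose.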

How the data were processed

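The deposited table holds, per the file headers, raw read counts and FPKM for each gene in each library, with gene positions. The deposited FPKM equalled the count over gene length and library total in 100% of values (relative tolerance 1e-06) and was used only to compare levels between genes and in 2 alternatives. The submitters' processing notes name HTSeq 0.9.1, HISAT2 2.1.0 and fastp 0.22.0. Genome build and strand setting were not given in the sources used here, and gene coordinates are those of the deposited table with no build assigned.

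Sample titles gave the groups and replicate numbers. The deposited counts of all 9 libraries were tested in 1 fit with edgeR 4.0.16 (R 4.3.3), after its expression filter and TMM scaling, with two-sided quasi-likelihood tests and Benjamini-Hochberg adjustment over 14921 genes. Each SE was obtained as the absolute log2 fold change over the root of F. Values per library are CPM after TMM scaling, and SDs are over 3 libraries. The libraries were taken as unpaired, since the labels state no pairing by replicate number. Each p-value sets a difference between groups against the spread of libraries within groups. That spread was estimated from all 9 libraries, so the CDs libraries also enter the test of Model versus Blank.

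The members and all gene lists were chosen with earlier results of these data known. Values of every library are given for the 3 genes of each member role that ranked lowest by p in Model versus Blank, the 1 that did so in CDs versus Model and both inhibitors, and for each other list 3 and 2 genes were named by the same ranking. Other members were chosen after their values were seen. A gene that the ranking named is not reported here. The marker lists were epithelium, stem cell, fibroblast, smooth muscle (1 of 7 genes rose in Model versus Blank), leukocyte, germinal centre (3 of 8 rose and 1 fell), erythroid (5 of 6 tested rose), pancreatic acinar and prostate genes. As alternatives, the replicate number was used as a block, and results were recomputed with 6-library fits, 2 other filters, 2 other scalings, DESeq2 1.42.0, limma 3.58.1 on log2(FPKM + 0.1) and log2(FPKM + 1), each library left out, and libraries with pancreatic or prostate RNA left out. Scaling to epithelial markers and leaving out Model 2 and CDs 1 together were added after the data were seen. Counts simulated from these libraries, with 50 genes changed per fold size, served as a check of the test. For Model versus Blank it recovered 50% of 2-fold and 76% of 3-fold changes and for CDs versus Blank 52% and 72%. False calls were 5 of 115 and 4 of 111 in these comparisons, and 16 of 126 in CDs versus Model.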

Additional observations from a re-analysis of the deposited data

How the results depend on the processing

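The 54 genes stayed on their side of the threshold, with no called value of the other sign, in 997 of 1188 combinations of gene and setting in Model versus Blank, 1186 of 1188 in CDs versus Model, where no gene was called with all libraries, and 985 of 1188 in CDs versus Blank. Called or not, the sign differed in 28 combinations in Model versus Blank, 200 in CDs versus Model (41 of 54 genes without CDs 1, 43 without Model 2 and CDs 1 and 20 without Model 2) and 61 in CDs versus Blank. With each library left out in turn, Model versus Blank gave 4405 to 7459 genes called, 8 to 27 mitosis, 2 to 9 replication and 1 to 2 inhibitor genes lower and 0 to 1 member higher. CDs versus Model gave 0 to 0, and CDs versus Blank gave 3398 to 5540 genes called, 5 to 27 mitosis, 0 to 12 replication and 1 to 2 inhibitor genes lower and 0 to 1 higher. In Model versus Blank the replication genes called lower numbered 9 in the 6-library fit, 12 without Model 1, Model 3 and CDs 1 (1 inhibitor) and 7 without Model 2 and CDs 1. Without Blank 2 and Blank 3 there were 1536 genes called, with 0 replication, 1 mitosis and 1 inhibitor gene lower, and under epithelial scaling 0, 1 and 0, with 1 member higher and Cdkn1a at 0.026 and Cdkn1b at 0.39. In CDs versus Model the genes called numbered 50 by DESeq2, 1241 without Model 1, Model 3 and CDs 1 (2 members higher) and 1 without Model 2 and CDs 1. In CDs versus Blank the replication genes called lower numbered 1 with library totals and 12 without Model 1, Model 3 and CDs 1 or without Model 2 and CDs 1, where Rrm2 turned to -0.40 and -0.39, as it did without CDs 1 (-0.39, against up to 0.85 with another library left out). DESeq2 called 1 member higher. Without Blank 2 and Blank 3 there were 465 genes called and 0 replication, 0 mitosis and 0 inhibitor genes lower, and under epithelial scaling 0, 3 and 0, with 1 higher and Cdkn1b at 0.070. Fits with 1 library in a group assume that it varies like the others. The cause of these changes was not tested. The replicate number as a block gave 5672 genes called in Model versus Blank, with 25 mitosis and 3 replication members lower. Same-numbered libraries correlated between -0.37 and 0.21 in their deviations from group means, with 3 of 9 pairs over 0.1. With 3 libraries per group these correlations cannot show whether the numbers pair the libraries. Depth limits members little, since the least abundant, E2f1, had 777 reads over 9 libraries.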
